A study of Mus musculus with 12 samples.

Results

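The 10 genes of the NF-kB system described here were measured in 2 mouse tumour cell lines, in control cells and in cells given ionising radiation. They are the 5 subunit genes Nfkb1, Nfkb2, Rel, Rela and Relb, and 5 genes for inhibitors or regulators of the pathway, Nfkbia, Nfkbib, Nfkbie, Nfkbiz and Tnfaip3. They were taken by gene symbol from a table of 57180 genes, in which each had 1 row. All 10 were among the 14362 genes with enough reads to be tested. RNA was sequenced from MB49, a bladder cancer line, and KPC, a pancreatic ductal adenocarcinoma line, both labelled as wild type. Each line had 3 control libraries and 3 libraries from cells given 8 Gy, which were cultured for 48 h before collection. How long the controls were cultured is not stated, so culture time and dose cannot be told apart. The design names both senescent and non-senescent tumour cells, but the library labels give only control or 8 Gy, and they do not say whether a group's libraries are separate cultures. The p-values therefore measure only the spread between these libraries.

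NF-kB is a family of dimeric transcription factors that switch on genes of inflammation, survival and immune defence. Rela, Relb and Rel encode subunits with an activation domain, and Nfkb1 and Nfkb2 encode the precursors p105 and p100, which are processed to the DNA-binding subunits p50 and p52. In the canonical pathway the IkB kinase complex marks the cytoplasmic inhibitors IkB-alpha, IkB-beta and IkB-epsilon (Nfkbia, Nfkbib and Nfkbie) for breakdown, which frees dimers to enter the nucleus. In the non-canonical pathway the kinase NIK, encoded by Map3k14, drives the processing of p100, and dimers of p52 with Relb form. Several inhibitor genes are themselves NF-kB targets, so their RNA takes part in feedback, and transcript levels do not show how much factor is in the nucleus.

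The libraries held 19006015 to 26337950 counts. Levels are given as CPM, counts scaled to a common library size, for replicates 1, 2 and 3 in turn. Changes are log2 fold changes ± SE from edgeR's quasi-likelihood test, and a gene was called where the Benjamini-Hochberg adjusted p, over the whole table of tested genes, was under 0.05. Both lines changed broadly after 8 Gy: 5066 genes were higher and 4540 lower in MB49, and 4490 higher and 4596 lower in KPC. Scaling by library totals alone moved the median of all genes by -0.295 on the log2 scale in MB49 and -0.384 in KPC, and the splits became 3819 higher and 5850 lower, and 3085 higher and 6621 lower. KPC control replicate 1 stood apart in its share of counts in the 18S ribosomal RNA gene Rn18s-rs5, 5.11% against 0.141 to 0.547% in the other 11 libraries.

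After 8 Gy the subunit genes fell or did not pass the test, while the inhibitor genes split. Rela, Nfkb1, Relb and the IkB-epsilon gene Nfkbie fell in both lines. The IkB-alpha gene Nfkbia and the nuclear IkB gene Nfkbiz rose in both. Tnfaip3, which encodes the ubiquitin-editing inhibitor A20, fell in MB49 and rose in KPC. In MB49, 2 of the 10 members rose and 6 fell, against a background of 66.9% of all genes called (35.3% higher and 31.6% lower). The libraries of the 8 called members did not overlap between MB49 groups, as for 67.3% of all genes. In KPC, 3 rose and 4 fell, against 63.3% of all genes called (31.3% higher and 32% lower). The 7 called members did not overlap between KPC groups, as for 69.7% of all genes. With so many genes called, the number of members called lies near the background, and the sizes and directions below carry the description. The median change of the 10 members was -0.96 in MB49 against 0.04 for all genes, and -0.06 in KPC against -0.01. In bulk RNA, fewer cells with a transcript and less of it per cell cannot be told apart.

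**Figure D1:**
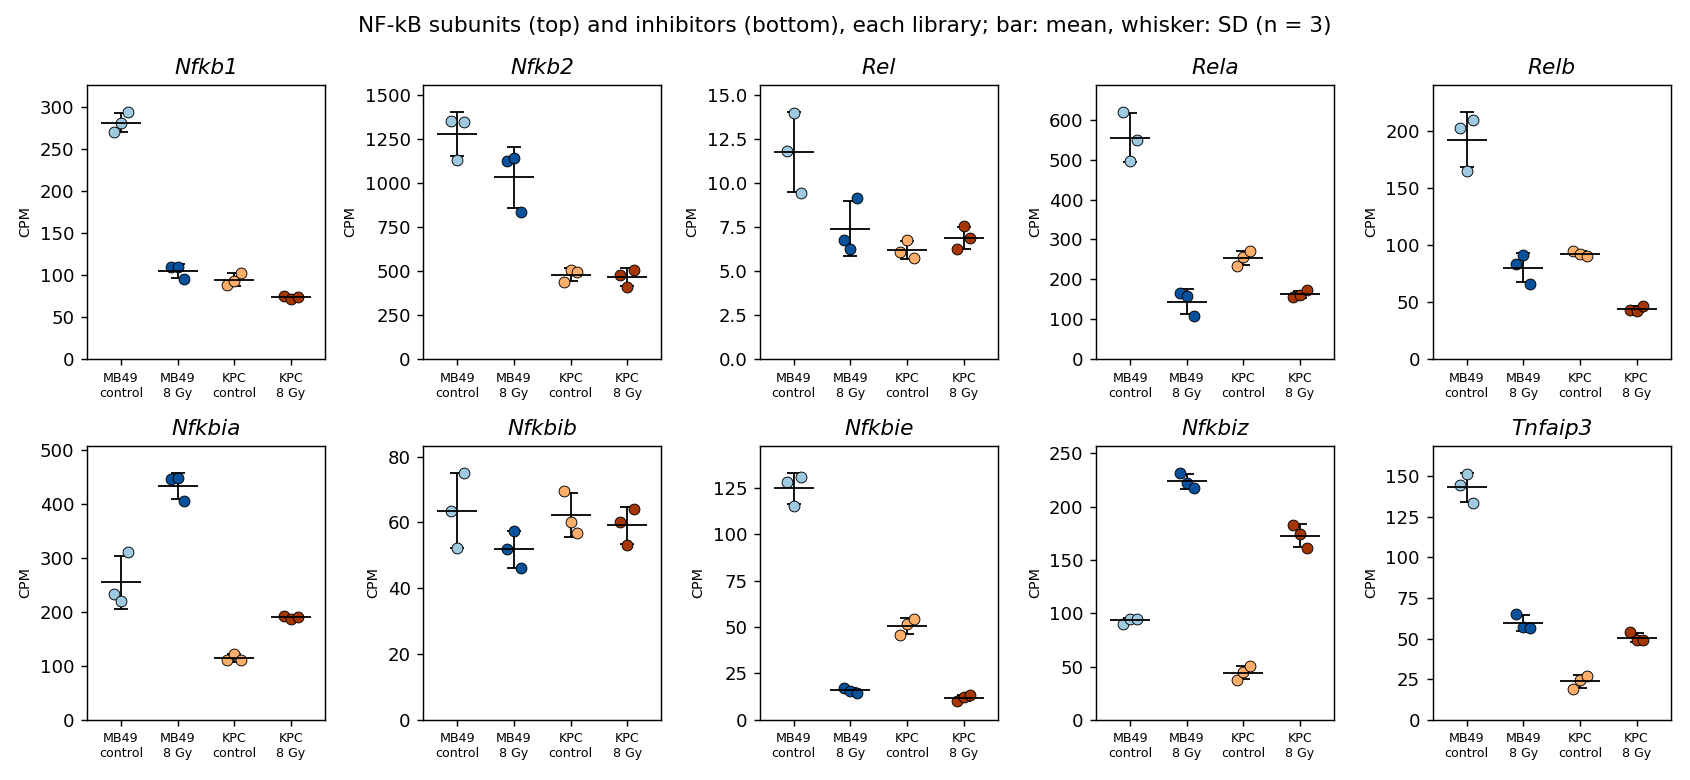
CPM of each of the 10 genes in every library (points), with the mean (horizontal bar) and SD (whisker, n = 3), by line and treatment; each vertical axis starts at 0. The MB49 controls are the highest group for 8 genes, Nfkbia and Nfkbiz are highest in irradiated MB49 cells, and Tnfaip3 moves in opposite directions in the lines.

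Sequence upstream of the annotated starts was read for the members whose feedback is described below. RefSeq's table for GRCm38.p6, a build older than the GRCm39 of the counts, held windows of 250 bases before to 50 after the start for 7 of the 10 members, in 10 windows. They were searched on both strands for the 10-base kappaB consensus. At least 1 match lay in a window of 5 members (Nfkb2, Rel, Nfkbia, Nfkbie and Tnfaip3), and 9.55% of 27025 genes with windows of this length had one. Nfkb2 had 3 windows and Tnfaip3 had 2, which gave them more places to match. The 250 bases before the start are shown for 3 inhibitor genes that changed after 8 Gy, and for Nfkb2 and Rela. Nfkb2 was the most abundant subunit transcript per length, and Rela fell furthest among the subunits in MB49. Capitals mark the kappaB matches, and overlapping matches form 1 stretch.
Nfkbia, chr12:55492648-55492897, minus strand: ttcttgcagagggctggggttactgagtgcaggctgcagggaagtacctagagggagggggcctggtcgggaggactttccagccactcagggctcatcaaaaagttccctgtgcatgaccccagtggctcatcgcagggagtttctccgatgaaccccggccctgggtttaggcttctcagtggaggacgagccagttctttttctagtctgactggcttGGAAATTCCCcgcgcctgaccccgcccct
Nfkbie, chr17:45555450-45555699, plus strand: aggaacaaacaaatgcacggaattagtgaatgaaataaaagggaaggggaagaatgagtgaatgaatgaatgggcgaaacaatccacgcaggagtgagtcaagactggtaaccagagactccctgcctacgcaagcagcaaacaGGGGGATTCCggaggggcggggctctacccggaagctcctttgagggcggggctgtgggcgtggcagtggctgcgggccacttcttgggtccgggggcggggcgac
Tnfaip3, start 2, chr10:19015411-19015660, minus strand: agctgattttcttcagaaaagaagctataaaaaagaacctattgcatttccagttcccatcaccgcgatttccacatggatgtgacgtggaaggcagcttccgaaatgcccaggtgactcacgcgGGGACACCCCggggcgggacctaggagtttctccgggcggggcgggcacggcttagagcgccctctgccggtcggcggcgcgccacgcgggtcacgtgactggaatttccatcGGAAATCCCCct
Nfkb2, start 1, chr19:46304487-46304736, plus strand: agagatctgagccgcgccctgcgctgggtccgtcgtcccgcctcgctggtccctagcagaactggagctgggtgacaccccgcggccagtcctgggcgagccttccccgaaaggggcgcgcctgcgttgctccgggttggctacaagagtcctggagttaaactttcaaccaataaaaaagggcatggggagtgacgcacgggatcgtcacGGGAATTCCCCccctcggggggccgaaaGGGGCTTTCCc
Rela, chr19:5637291-5637540, plus strand: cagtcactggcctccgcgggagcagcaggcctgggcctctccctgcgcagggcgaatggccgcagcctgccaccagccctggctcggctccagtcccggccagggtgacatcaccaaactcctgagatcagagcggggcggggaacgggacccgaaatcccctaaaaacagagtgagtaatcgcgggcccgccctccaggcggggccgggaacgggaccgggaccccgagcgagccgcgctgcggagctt

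The match in the Nfkbia window began 29 bases before the start and that in the Nfkbie window 106 bases before it. The second Tnfaip3 window had matches at 125 and 12 bases before the start, and the first Tnfaip3 window had none. The first Nfkb2 window had overlapping matches from 39 bases and another at 11 bases before the start. No kappaB match was found in the Rela or Nfkbib windows. The GAS motif TTCNNNGAA, to which STAT dimers bind, was in 8.3% of the 32851 windows of all genes and, among the members, only in the first Nfkb2 window. The TTCNNNGAA and kappaB matches in the Nfkb2 window did not overlap. A match describes the letters and is not evidence of binding.

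**Figure D2:**
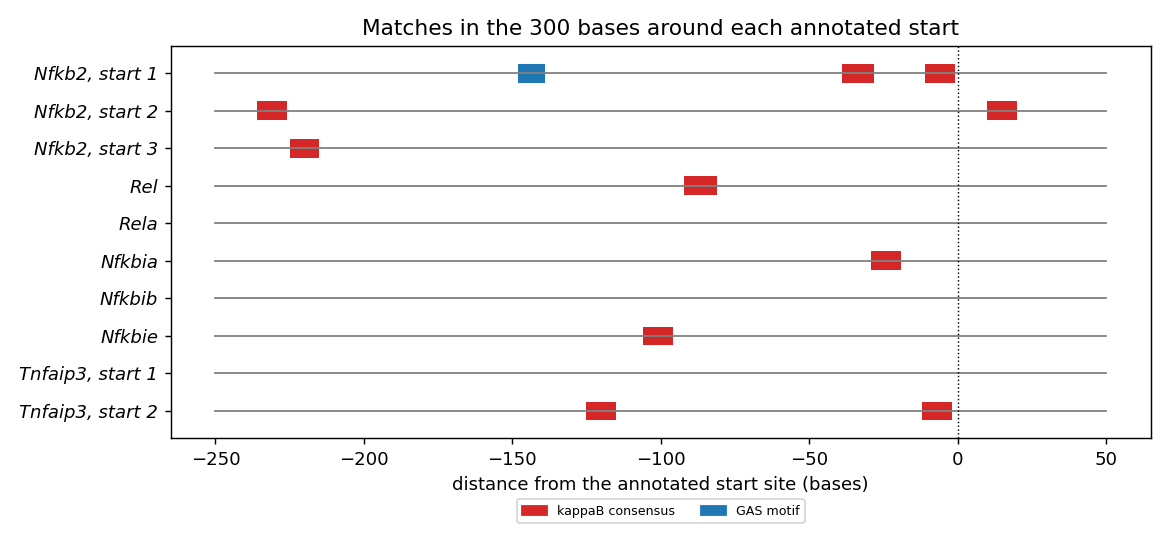
Position of kappaB matches and of the GAS motif (coloured boxes) in each 300-base window (grey line), in bases from the annotated start. Of the 10 windows, those of Rela and Nfkbib and the first of Tnfaip3 hold no match.

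Rela encodes p65, the main activating subunit of the canonical pathway, and it had the largest fall of the 5 subunit genes in MB49. Its levels were 619, 498 and 550.0 CPM in MB49 controls and 164, 159 and 107 CPM after 8 Gy. The groups did not overlap, and irradiated replicate 3 was the lowest library of all 12. The change was -1.95 ± 0.15, adjusted p = 5.54e-09, and 7.35% of all genes had a lower value. In KPC, Rela was at 234, 255 and 269.8 CPM in controls and 156, 159.7 and 172 CPM after 8 Gy, again without overlap. That change was smaller, -0.64 ± 0.15, adjusted p = 0.00115, and reached -1.03 when libraries were scaled by totals. After 8 Gy the libraries of both lines overlapped for Rela, although the MB49 controls were well above the KPC controls.

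Nfkb1, the p105 and p50 gene, was at 269.7, 280.2 and 293 CPM in MB49 controls and 110.0, 109 and 94.98 CPM in irradiated MB49 cells. The irradiated libraries all lay far below the controls, with a change of -1.43 ± 0.11, adjusted p = 4.81e-09. In KPC the levels were 87.5, 92.6 and 102 CPM in controls and 75.4, 71.7 and 74.2 CPM after 8 Gy. These groups also stood apart, by a smaller change of -0.35 ± 0.11, adjusted p = 0.00923, or -0.74 with scaling by library totals. Irradiated MB49 cells overlapped the KPC controls in their Nfkb1 level.

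Relb, the partner of p52 in the non-canonical pathway, fell in both lines. MB49 controls had 203, 165 and 210.0 CPM and irradiated MB49 cells 83.6, 91.1 and 66.1 CPM, a change of -1.26 ± 0.13, adjusted p = 1.96e-07. KPC controls had 95.1, 92.5 and 90.2 CPM and irradiated KPC cells 42.9, 42.2 and 46.5 CPM, a change of -1.08 ± 0.13, adjusted p = 1.55e-06. In each line all 3 irradiated libraries were below all 3 controls, and the irradiated KPC cells were the lowest group.

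Rel encodes c-Rel, a subunit best known from lymphocytes, and per kilobase it was the scarcest member, at 1.58 CPM per kb or less in the group means. It stood at 11.8, 14.001 and 9.46 CPM in MB49 controls and 6.79, 6.27 and 9.19 CPM after 8 Gy, and at 6.12, 6.77 and 5.76 and 6.25, 7.55 and 6.86 CPM in KPC controls and irradiated KPC cells. In MB49 the highest irradiated library came close to the lowest control without overlapping it. The MB49 change was -0.67 ± 0.18, adjusted p = 0.00399, and the call was lost when fold changes were corrected for gene length (-0.35, adjusted p = 0.07). Rel is the longest member, and the MB49 change of genes of like length had a median of -0.292. In KPC the groups overlapped and Rel did not pass the test, at 0.15 ± 0.19, adjusted p = 0.509.

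Nfkb2, the p100 and p52 gene, was the most abundant subunit transcript and did not pass the test in either line. MB49 controls had 1350.2, 1132 and 1345 CPM and irradiated MB49 cells 1122, 1139.5 and 833 CPM, so that 1 irradiated library lay above the lowest control. The values in KPC were 437, 506 and 494 CPM in controls and 478, 407 and 506 CPM after 8 Gy, with wide overlap. The changes were -0.31 ± 0.14, adjusted p = 0.0656 in MB49 and -0.05 ± 0.14, adjusted p = 0.796 in KPC. The call depended on scaling: with library totals Nfkb2 was lower in both lines (-0.61 in MB49, adjusted p = 0.00047, and -0.44 in KPC, adjusted p = 0.00549). It was also called in MB49 without MB49 control replicate 2 (-0.39, adjusted p = 0.0366) or without KPC control replicate 1 (-0.40, adjusted p = 0.0126). In the GRCm38 annotation Nfkb2 shares 299 bases with the opposite-strand gene Psd and 1292 bases with an antisense transcript. Those genes held 4641 and 2697 counts over the 12 libraries, against 224034 for Nfkb2, and whether reads were counted by strand is not known from the sources used here.

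With Rela, Nfkb1 and Relb lower and Nfkb2 not called, the make-up of the subunit transcripts differed after 8 Gy. Compared per kilobase of gene length, the 5 subunit genes summed to 815 ± 71.3 CPM per kb (SD, n = 3) in MB49 controls and 471 ± 77.5 in irradiated MB49 cells. The sums were 328 ± 19.3 in KPC controls and 261 ± 20.5 in irradiated KPC cells. Nfkb2 made up 52.5 ± 0.71% of the sum in MB49 controls and 73.5 ± 0.23% after 8 Gy, and 49.0 ± 1.2% and 59.6 ± 2.2% in KPC. The libraries of control and irradiated cells did not overlap in this share in either line. Rela's share was 25.1 ± 1.2% in MB49 controls and 11.1 ± 0.74% after 8 Gy, and 28.4 ± 0.69% and 23.0 ± 1.4% in KPC. The ratio of Nfkb2 to Nfkb1 per kilobase was 4.59 ± 0.49 and 9.90 ± 0.92 in MB49 controls and irradiated MB49 cells, and 5.14 ± 0.34 and 6.34 ± 0.58 in the KPC groups. Rel made up at most 0.422% of the sum in any library. These shares are descriptions without a test, and a share can rise with no change in the gene itself.

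**Figure D3:**
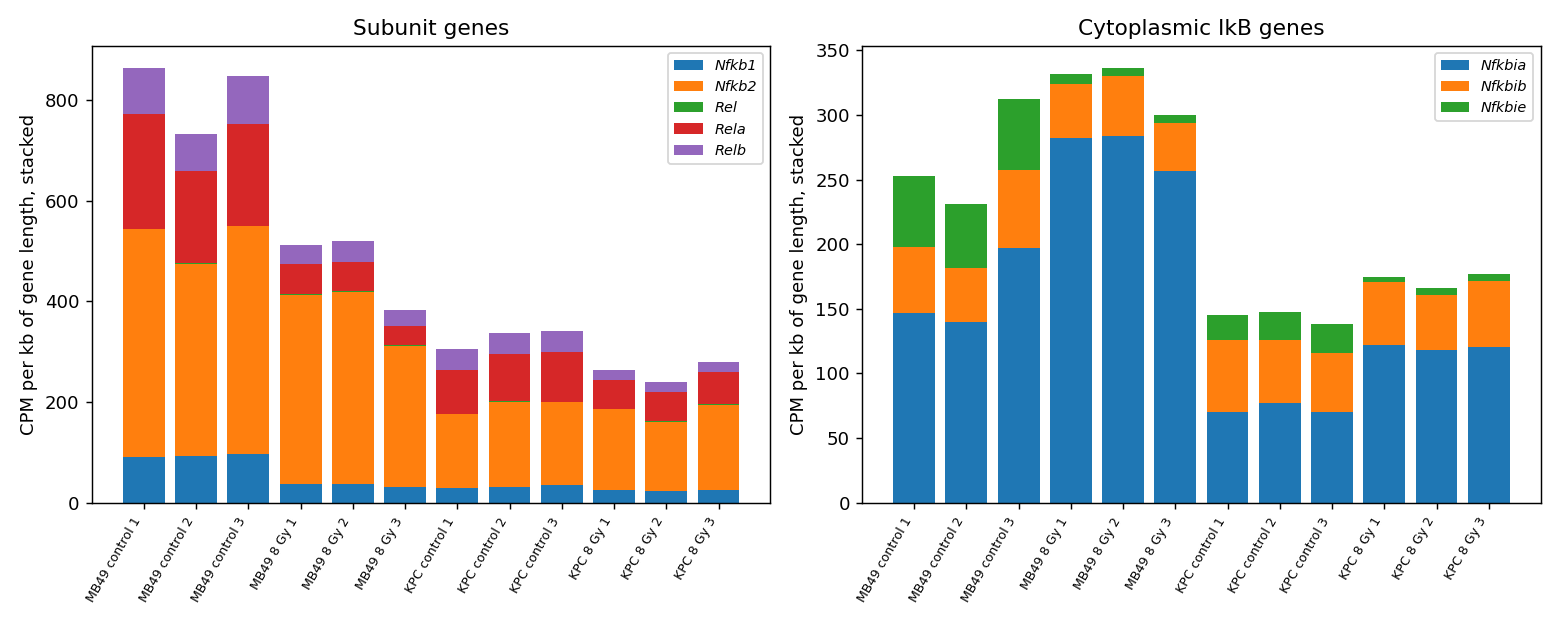
Stacked CPM per kb of gene length in each of the 12 libraries, for the 5 subunit genes (left) and the 3 cytoplasmic IkB genes (right). Nfkb2 is the largest part of every left bar, and Nfkbie is a thin part of every irradiated bar on the right.

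Nfkbia encodes IkB-alpha, the fast-acting feedback inhibitor whose window carries the match shown above. It was at 232, 221 and 310.4 CPM in MB49 controls and 446, 448 and 406 CPM after 8 Gy. Control replicate 3 was the highest of the controls and still below every irradiated library. In KPC it was at 110.2, 122 and 110.1 CPM in controls and 193, 187 and 189.5 CPM after 8 Gy, with no overlap. The changes were 0.77 ± 0.13, adjusted p = 4.98e-05 in MB49 and 0.73 ± 0.13, adjusted p = 9.32e-05 in KPC. With library totals the rises were smaller, 0.47 and 0.34 (adjusted p = 0.0025 and 0.0183). Genes of like length to Nfkbia had a median change of 0.261 in MB49 and 0 in KPC. With the gene length correction its rises were 0.62 in MB49 (adjusted p = 6.46e-05) and 0.76 in KPC (adjusted p = 7.69e-06). Of genes tested, 27.3% had a higher value in MB49 and 25.1% in KPC.

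Nfkbie, the IkB-epsilon gene, had the largest change of all members in both lines, and its direction was opposite to that of Nfkbia. MB49 controls had 128, 115 and 131 CPM and irradiated MB49 cells 17.3, 15.8 and 14.3 CPM. KPC controls had 45.6, 51.6 and 54.2 CPM and irradiated KPC cells 10.1, 12.1 and 13.3 CPM. The irradiated libraries lay far below the controls in each line. The changes were -2.98 ± 0.13, adjusted p = 5.29e-12 in MB49 and -2.09 ± 0.13, adjusted p = 4.48e-10 in KPC, or 7.90-fold and 4.27-fold. Only 2.88% of all genes had a lower value in MB49 and 5.76% in KPC. Nfkbie and Nfkbia, which moved in opposite directions, both had a kappaB match in the windows shown above.

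Nfkbib, the IkB-beta gene, differed least between groups. Its levels were 63.5, 52.3 and 75.02 CPM in MB49 controls, 51.8, 57.5 and 46.2 CPM in irradiated MB49 cells, 69.7, 60.3 and 56.9 CPM in KPC controls and 60.3, 53.04 and 64.000 CPM in irradiated KPC cells. Neighbouring groups in the order of levels all overlapped. The changes after 8 Gy were -0.29 ± 0.14, adjusted p = 0.0732 in MB49 and -0.08 ± 0.14, adjusted p = 0.658 in KPC. As for Nfkb2, scaling by library totals made it called lower in both lines (-0.59, adjusted p = 0.000544, and -0.46, adjusted p = 0.00361). It was also called in MB49 with the gene length correction (-0.60, adjusted p = 0.000127), without MB49 control replicate 2 (-0.42, adjusted p = 0.0159) and without KPC control replicate 1 (-0.39, adjusted p = 0.0142). In the GRCm38 annotation 778 bases of Nfkbib are shared with the opposite-strand gene Sirt2, which held 19251 counts against 16225 for Nfkbib, so its level may hold reads of its neighbour.

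Among the 3 cytoplasmic IkB genes per kilobase, Nfkbia's share was 60.6 ± 2.3% in MB49 controls and 85.0 ± 0.68% after 8 Gy. In KPC it was 50.3 ± 2.2% and 69.6 ± 1.7%. Nfkbie took 20.2 ± 2.1% in MB49 controls and 2.08 ± 0.12% in irradiated MB49 cells, and 14.9 ± 1.6% and 2.91 ± 0.40% in KPC. The IkB sum was 265 ± 42.4 CPM per kb in MB49 controls and 323 ± 19.7 after 8 Gy, with overlap between the groups, and 144 ± 4.8 and 173 ± 5.9 in KPC, without overlap. The direction of this sum depended on the scaling: with library totals it was 302 ± 43.9 and 299 ± 5.5 in MB49, and 160 ± 6.4 in KPC controls and 147 ± 1.4 in irradiated KPC cells, again without overlap. The Nfkbia to Rela ratio per kilobase in controls was 0.793 ± 0.16 in MB49 and 0.780 ± 0.067 in KPC. After 8 Gy it was 5.35 ± 1.0 in MB49 and 2.01 ± 0.12 in KPC, above the controls in every library.

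Nfkbiz encodes IkB-zeta, a nuclear IkB protein that helps to switch on a subset of inflammatory genes. It was at 90.3, 94.9 and 94.5 CPM in MB49 controls and 232, 222 and 218 CPM after 8 Gy, and at 37.6, 44.7 and 50.003 and 183, 174 and 161 CPM in KPC. Every irradiated library was above every control library of either line. The rises were 1.26 ± 0.12, adjusted p = 4.8e-08 in MB49 and 1.97 ± 0.12, adjusted p = 2.65e-10 in KPC, where 8.44% of all genes rose by more.

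Tnfaip3 encodes A20, which removes and edits ubiquitin chains on signalling adaptors and so dampens the pathway upstream of the IkB kinases. It was at 145, 151 and 134 CPM in MB49 controls and 65.02, 57.3 and 56.5 CPM after 8 Gy, a change of -1.26 ± 0.13, adjusted p = 1.65e-07. In KPC it was at 18.9, 24.8 and 27.2 CPM in controls and 53.8, 49.2 and 48.96 CPM after 8 Gy, a change of 1.10 ± 0.13, adjusted p = 1.22e-06, or 0.71 with scaling by library totals. In each line the irradiated and control libraries did not overlap. The lines were far apart in the controls and near each other after 8 Gy, at 59.6 ± 4.7 CPM in MB49 and 50.6 ± 2.7 CPM in KPC. That remaining difference did not pass the test (-0.23 ± 0.13, adjusted p = 0.119), although the libraries did not overlap and it was called with library totals (-0.36, adjusted p = 0.0306).

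The responses were compared directly by the difference of the log2 changes, KPC minus MB49. Of the 10 members, 6 had a positive difference that passed the test and none a negative one, against 42.9% of all genes called (20.9% higher and 22% lower). The median difference over the 10 members was 0.76, against -0.02 for all genes. Tnfaip3 had the largest, 2.37 ± 0.18, adjusted p = 4.6e-08, and 4.99% of all genes had a higher value. Rela and Nfkb1 followed with 1.32 ± 0.21, adjusted p = 9.44e-05 and 1.07 ± 0.15, adjusted p = 3.4e-05, since both fell further in MB49. The difference for Nfkbie was 0.89 ± 0.18, adjusted p = 0.000851, again from a deeper fall in MB49. For Nfkbiz it was 0.71 ± 0.16, adjusted p = 0.00225, from a larger rise in KPC. The difference for Rel, 0.81 ± 0.26, adjusted p = 0.0184, lost its call with library totals (0.72, adjusted p = 0.057), with the gene length correction and replicate block together (0.61, adjusted p = 0.0656), and without MB49 control replicate 2 (0.68, adjusted p = 0.0543) or MB49 8 Gy replicate 2 (0.71, adjusted p = 0.0525). The other 4 did not pass: Nfkb2 at 0.26 ± 0.20, adjusted p = 0.317, Relb at 0.18 ± 0.18, adjusted p = 0.448, Nfkbib at 0.22 ± 0.20, adjusted p = 0.4 and Nfkbia at -0.04 ± 0.18, adjusted p = 0.909. Nfkbib was called in this comparison with the gene length correction (0.60, adjusted p = 0.00464).

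**Figure D4:**
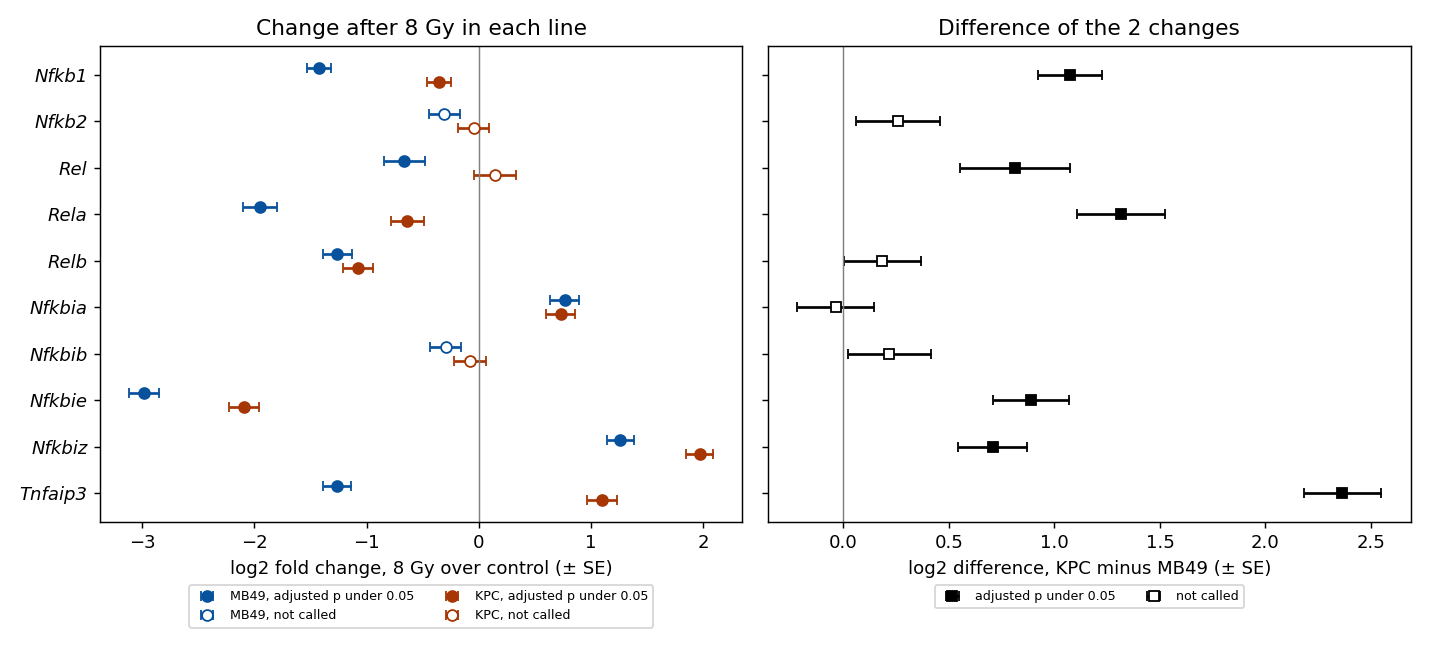
Left, log2 fold change after 8 Gy of each gene in MB49 (blue) and KPC (orange); right, the difference of these changes, KPC minus MB49 (squares). Whiskers are SE and open symbols did not pass the test; Tnfaip3 has its MB49 point at -1.26, its KPC point at 1.10 and the largest difference, 2.37.

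Among the controls the KPC line had less transcript of nearly every member. In KPC controls against MB49 controls, 9 of the 10 genes were lower and none higher, where 67.3% of all genes were called (33% higher and 34.4% lower). The libraries of these 9 genes did not overlap, as for 68.6% of all genes. The median difference was -1.15 for the members and -0.02 for all genes. Tnfaip3 differed most, at 143 ± 8.8 CPM in MB49 and 23.6 ± 4.3 CPM in KPC (-2.60 ± 0.14, adjusted p = 1.68e-11). Nfkb1 and Nfkb2 came next at -1.58 ± 0.11, adjusted p = 9.05e-10 and -1.41 ± 0.14, adjusted p = 1.44e-07. The other 6 lower genes lay between -1.31 (Nfkbie) and -0.92 (Rel). Nfkbib did not pass, at -0.03 ± 0.14, adjusted p = 0.863.

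After 8 Gy the lines were nearer to each other. In irradiated KPC cells against irradiated MB49 cells, 6 members were lower and none higher, where 64.4% of all genes were called (31% higher and 33.4% lower). The libraries of 7 members, these 6 and Tnfaip3, did not overlap, as for 70.7% of all genes. The median was -0.40 against -0.09 for all genes. Nfkbia and Nfkb2 differed most, at -1.19 ± 0.13, adjusted p = 3.71e-07 and -1.15 ± 0.14, adjusted p = 1.92e-06. Relb and Nfkb1 were lower by smaller amounts, -0.87 ± 0.13, adjusted p = 1.72e-05 and -0.50 ± 0.11, adjusted p = 0.000633. Nfkbie and Nfkbiz differed least of the called genes, at -0.42 ± 0.13, adjusted p = 0.0113 and -0.37 ± 0.11, adjusted p = 0.00899. The Nfkbie call was lost without MB49 8 Gy replicate 1 (adjusted p = 0.056) or KPC 8 Gy replicate 1 (0.0846), and the Nfkbiz call without KPC 8 Gy replicate 3 (0.0527). Rela, Rel and Nfkbib overlapped between the irradiated lines and did not pass. The comparisons share libraries, and their values are given side by side.

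Across all 12 libraries, each member was set beside every other named gene with a mean of at least 5 CPM. Likeness was the root mean square difference of centred log2 CPM, where a smaller value is a closer pattern. The closest gene to Nfkbie was Cyb5r1 (0.153), followed by Syt12 and Xpot. Closest to Tnfaip3 was Slc41a2 (0.215), then the beta-actin gene Actb (0.229) and Kif14. Rela lay nearest to Gtpbp2 (0.122), Det1 (0.124) and Dhx37, and Nfkb1 to the bradykinin receptor gene Bdkrb2 (0.164), Fam118a and Sgms2. For Relb these were Cmtm3 (0.147), Pomgnt1 and Sphk1, for Nfkb2 Arhgap22 (0.121), Synj2 and Arfgap3, and for Rel Zfp280d (0.108), Fem1c and Dhx15. For Nfkbia they were Chst1 (0.118), Pex7 and Rnh1, for Nfkbib Fam104a (0.1002), Clasrp and Puf60, and for Nfkbiz Inpp1 (0.140), Ptgs1 and Wdfy1. Among the members themselves, Nfkb1 and Relb were the closest pair (0.291), then Nfkb1 and Rela (0.383) and Rela and Relb (0.396). No member was among the 3 closest genes of another.

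Upstream of the members, 31 receptors, adaptors and kinases were all tested. In MB49, 8 rose and 13 fell, with a median of -0.11. In KPC, 13 rose and 8 fell, with a median of 0.17. The share called, 67.7% in each line, lay near that of all genes, 66.9% in MB49 and 63.3% in KPC. With library totals these counts were 8 and 17 in MB49 and 10 and 11 in KPC. The subunits of the IkB kinase complex did not move together. Ikbkg, the regulatory subunit NEMO, rose in both lines, from 29.3 ± 0.58 to 88.1 ± 2.4 CPM in MB49 (1.59 ± 0.10, adjusted p = 6.03e-10) and from 28.8 ± 1.4 to 80.9 ± 4.7 CPM in KPC (1.49 ± 0.10, adjusted p = 1.5e-09). The catalytic subunit gene Ikbkb fell in MB49 (-1.02 ± 0.12, adjusted p = 1.19e-06) and did not pass in KPC (0.11 ± 0.12, adjusted p = 0.455). Chuk, the other catalytic subunit, did not pass in either line (0.02 and 0.09). Rnf31, which encodes the catalytic subunit of the linear ubiquitin ligase that acts on NEMO, rose by 1.92 ± 0.15 in MB49 and 3.03 ± 0.16 in KPC.

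The largest falls of this list in MB49 were those of the receptor gene Tlr4 (-1.45 ± 0.23), the ubiquitin ligase gene Birc3 (-1.29 ± 0.13) and the adaptor gene Tab2 (-1.10 ± 0.13). In KPC the interleukin-1 receptor gene Il1r1 (-1.98 ± 0.19), Traf3 (-1.68 ± 0.17) and Tab1 (-1.31 ± 0.13) fell most, and the RNA sensor gene Tlr3 rose by 3.48 ± 0.27. Cd40, a receptor that feeds both pathways, rose in MB49 from 29.7 ± 2.9 to 77.1 ± 6.2 CPM (1.38 ± 0.16). In KPC it had 1 count over the 3 controls and 67 after 8 Gy, a ratio of 83.1 with a 95% exact counting interval of 14.4 to 3330. Such intervals, here and below, pool the 3 libraries of a group and leave out the spread between libraries. The 4 genes of the complex that marks NIK for degradation differed unevenly between the controls of the lines. Traf3, the adaptor that binds NIK, had 28 counts over the 3 MB49 controls (0.354 ± 0.17 CPM) and 6235 over the 3 KPC controls (83.0 ± 15.7 CPM). Birc3, a ligase of the same complex, went the other way, at 86.1 ± 6.5 CPM in MB49 controls and 0.750 ± 0.20 CPM in KPC controls. Birc2, a related ligase, was at 20.3 ± 1.6 and 4.06 ± 0.52 CPM (-2.32 ± 0.20, adjusted p = 1.56e-08). Traf2, which links the ligases to Traf3, was at 243 ± 23.4 and 197 ± 5.1 CPM, a small difference (-0.30 ± 0.12, adjusted p = 0.0397). Map3k14, the NIK gene, was higher in KPC controls (0.75 ± 0.16, adjusted p = 0.000506), did not pass after 8 Gy in MB49 (0.33 ± 0.16, adjusted p = 0.0846) and fell in KPC (-1.10 ± 0.16, adjusted p = 1.45e-05). Nfkb2, whose product NIK acts on, stood 2.66-fold lower in KPC controls beside these values; their part in that difference was not tested.

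Of 19 other inhibitors and regulators, 5 rose and 7 fell in MB49 (median -0.11), and 9 rose and 5 fell in KPC (median 0.20). These are 63.2% and 73.7% of the list, beside 66.9% and 63.3% of all genes. With library totals 2 rose and 10 fell in MB49, and 5 rose and 9 fell in KPC, so the balance in KPC depended on the scaling. Tnip3, which encodes a partner of A20, rose in both lines (2.68 ± 0.20 in MB49 and 2.33 ± 0.20 in KPC). Tnip1, another A20 partner, rose by 1.66 ± 0.14 in KPC, and Optn by 1.64 ± 0.11. Nkrf, a repressor of NF-kB-driven promoters, fell in both (-2.82 ± 0.27 and -1.33 ± 0.26). Bcl3, a nuclear IkB protein that binds p50 and p52 dimers, fell in MB49 (-1.50 ± 0.16, adjusted p = 3.62e-07) and rose in KPC (0.45 ± 0.16, adjusted p = 0.0197). Its difference of responses was 1.96 ± 0.23, adjusted p = 4.2e-06, in the direction of that of Tnfaip3. The KPC rise of Bcl3 was little larger than the shift of the KPC median with library totals, -0.384. Its summed counts were 4003 in KPC controls and 4392 after 8 Gy, so the size of that rise depended on the scaling. Otulin, a linear ubiquitin protease gene, fell by 1.31 on the log2 scale in MB49. N4bp1 and Pdlim2 rose there by 0.86 ± 0.11 and 0.54 ± 0.14, the second not passing with library totals (0.24, adjusted p = 0.0895). Commd1 and Nkiras2 fell in KPC, with changes of -1.22 ± 0.16 and -1.21 ± 0.13.

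Downstream, 28 of 32 genes known as NF-kB targets were tested. Il1a, Il1b, Tnf and Bcl2a1b had too few counts. In MB49, 15 rose and 12 fell, with a median of 0.94. In KPC, 22 rose and 4 fell, with a median of 1.61, or 1.63 with Il6 set at its bound and Il23a left out because the counts of both groups were at or under 3. The share called was 96.4% in MB49 and 92.9% in KPC, where 66.9% (35.3% higher and 31.6% lower) and 63.3% (31.3% higher and 32% lower) of all genes were. The list was chosen with earlier results of these data known, so these shares describe the listed genes and are no test of NF-kB targets as a class. Without KPC control replicate 2 or KPC 8 Gy replicate 2, 2 targets fell in KPC. Rises went with falls of Rela and Nfkb1 in the same libraries. Nos2, the inducible nitric oxide synthase gene, rose from 88.2 ± 12.6 to 2302 ± 504 CPM in MB49 (4.71 ± 0.20) and from 3.14 ± 0.75 to 7138 ± 632 CPM in KPC (11.15 ± 0.27). The chemokine gene Cxcl10 rose by 4.15 ± 0.14 and 5.76 ± 0.15, and in MB49 Ccl5 by 6.82 ± 0.22. The complement factor B gene Cfb rose in KPC by 10.22 ± 0.31. Many of these genes are also induced by interferons, and which factor acted on them was not tested.

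Other targets fell. In MB49 Ccl20, a chemokine gene, fell by 6.37 on the log2 scale (463 counts over the controls and 4 after 8 Gy), the cytokine gene Il23a by 5.45 and Csf2, the GM-CSF gene, by 3.77. In KPC Traf1, an adaptor gene, fell from 71.2 ± 6.8 to 1.39 ± 0.31 CPM (-5.66 ± 0.18), and Lif and Csf1 fell by 0.68 and 0.39. The Csf1 call was lost without KPC control replicate 2 (adjusted p = 0.0562), KPC control replicate 3 (0.0658) or KPC 8 Gy replicate 2 (0.0761). In the controls, 20 of the 28 targets were lower in KPC and 6 higher, with a median of -2.18, where 34.4% of all genes were lower and 33% higher with a median of -0.02. The choice of the list limits this comparison in the same way.

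Between the lines, the largest called differences of the lists were spread over both directions. In controls the upstream genes lowest in KPC against MB49 were Cd40 (2299 counts over the MB49 controls and 1 over the KPC controls, a ratio of 2220 with a 95% exact counting interval of 398 to 87800), Birc3 and Tlr4 (-4.15 ± 0.28), and those highest in KPC were Traf3, Map3k14 and Tradd (0.58 ± 0.17, not passing without KPC control replicate 1, adjusted p = 0.051). After 8 Gy, Cd40 (-6.12 ± 0.23), Birc3 (-4.47 ± 0.17) and Il1r1 (-3.91 ± 0.19) were lowest in KPC, and Traf3 (5.36 ± 0.25), Tlr3 (3.08 ± 0.27) and Rnf31 (1.40 ± 0.15) highest. Cd40, Birc3 and Traf3 were thus at the ends of the list in control and in irradiated cells. Among the other regulators in controls, Pdlim2 (-1.41 ± 0.15), Nfkbid (-1.25 ± 0.38) and Otud7b (-1.13 ± 0.12) were lower in KPC, and Commd1 (1.22 ± 0.16), Nkiras2 (1.17 ± 0.13) and Nkiras1 (1.04 ± 0.23) higher. The Nfkbid call was lost without KPC control replicate 2 (adjusted p = 0.0519). In irradiated cells Nfkbid (-2.51 ± 0.46), Tnip3 (-1.11 ± 0.18) and Otud7b (-1.08 ± 0.12) were lower, and Otulin (1.64 ± 0.14), Bcl3 (1.12 ± 0.16) and Optn (0.75 ± 0.10) higher. Nfkbid, which encodes another nuclear IkB protein, and Otud7b, a deubiquitinase gene, were among the lowest in KPC in both comparisons. Targets differed by more. The chemokine gene Ccl2 had 17089 counts over the MB49 controls and 8 over the KPC controls, Csf2 had 2126 and 4, and Il23a had 1280 and 3, a ratio of 412 with an interval of 141 to 2000. In the other direction lay Cxcl5 (6.59 ± 0.17), Ccl5 (5.65 ± 0.22) and Gadd45b (2.17 ± 0.14). After 8 Gy the protease gene Mmp9 (-7.53 ± 0.23), Traf1 (-6.72 ± 0.19) and the G-CSF gene Csf3 (-5.73 ± 0.17) were lowest in KPC, and Cxcl5 (8.31 ± 0.19), Cfb (7.54 ± 0.26) and Ccl5 (2.42 ± 0.15) highest.

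**Figure D5:**
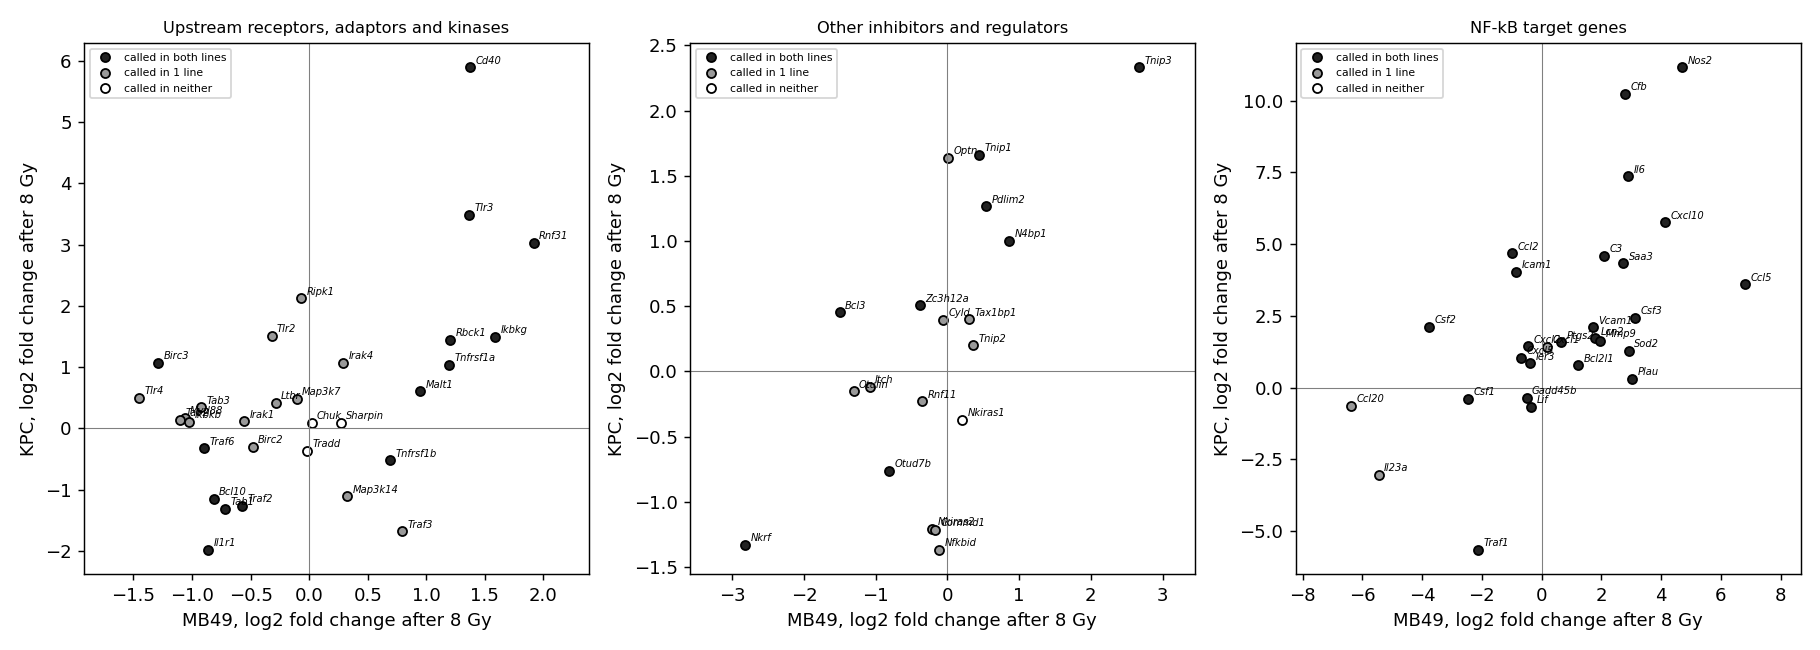
Log2 fold change after 8 Gy in MB49 (horizontal) and KPC (vertical) of the upstream genes, the other regulators and the NF-kB targets; each point is a gene, black if called in both lines, grey if in 1, white if in neither. Points left of 0 and above 0 have a negative change in MB49 and a positive one in KPC. The black ones there include Birc3 and Bcl3 and the targets Ccl2, Cxcl2, Cxcl5, Csf2, Icam1 and Ier3.

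Markers of other cells were read beside these results. Sums of markers are scaled by library totals alone, and means of single genes as elsewhere here. Of 12 leukocyte markers, summed levels were 0.519 to 1.38 CPM in MB49 controls, 4.67 to 4.93 in irradiated MB49 cells, 1.92 to 2.51 in KPC controls and 4.66 to 4.95 in irradiated KPC cells. In irradiated MB49 cells only Ly6g reached a mean of 1 CPM (4.31 ± 0.24, and 0.431 ± 0.18 in controls). In irradiated KPC cells only Cd79a (3.82 ± 0.16, and 1.83 ± 0.28 in controls) and Csf1r (1.62 ± 0.22, and 0.106 ± 0.061 in controls) did. Ptprc, the pan-leukocyte gene, had 0 counts in 3 groups and 1 count in irradiated MB49 cells. The 5 fibroblast markers summed to 58.4 to 80.5 CPM in MB49 controls and 143 to 210 after 8 Gy, and to 177 to 238 and 71.1 to 83.8 in KPC, and their part in the members' changes was not tested. These markers did not move together. In MB49 mean Dcn (36.1 to 137 CPM) and Pdgfra (11.1 to 39.6) rose, while Col1a1 fell (13.3 to 5.77). In KPC mean Pdgfrb (104 to 51.2 CPM), Col1a1 (73.2 to 33.8) and Pdgfra (12.2 to 8.09) fell, and Dcn was at 0.196 and 0.268. Of the 5 endothelial markers the sum did not exceed 1.91 CPM. The uroplakin genes Upk1b, Upk2, Upk3a and Upk3b, which define urothelium, were at 0 in MB49 controls, where urothelial markers summed to 15.1 to 20.8 CPM. In KPC controls, Upk3a and Upk3b were at 0 and the urothelial sum was higher, 58.8 to 66.4 CPM. The 9 pancreatic duct markers summed to 1270 to 1500 CPM in KPC controls and to a like 1150 to 1430 CPM in MB49 controls, with Spp1 the highest in both. Among them Pdx1 had a mean of 76.7 ± 4.1 CPM in the KPC and 17.3 ± 2.4 CPM in the MB49 controls, and Krt19 one of 80.7 ± 12.9 and 3.85 ± 2.5 CPM. Cftr and Onecut1 were at 0 in KPC, and Foxa2 and Onecut1 in MB49. These sums did not separate the lines by their labelled tissues.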

How the data were processed

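Estimated counts per gene were deposited by the authors for 12 libraries, unscaled, with 6.20 to 8.65% of values in each library not whole numbers. Per the submitters' processing notes, fastp, HISAT2, StringTie and GRCm39 were used; versions, the read counter and its strand setting are not given in the sources used here. Libraries were made with a stranded mRNA kit, per the labels' protocols. Groups came from the labels, and nothing was left out but the authors' deposited group means. The deposited gene length column gave CPM per kilobase.

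Counts were rounded. Rows with no symbol (525, with 0.184 to 0.449% of counts) kept their identifier. edgeR (4.0.16, R 4.3.3) kept 14362 genes with filterByExpr and removed 42818, and TMM factors were 0.829 to 1.18. A robust quasi-likelihood model of 4 groups (8 residual degrees of freedom) was fitted to all 12 libraries, and 5 comparisons were tested, 2-sided, with Benjamini-Hochberg adjustment over all genes. SE is the size of the log2 fold change over the square root of F. An exact permutation test of 3 libraries against 3 cannot go below p = 0.1 and was not used. The script was tested on simulated data. Alternatives were library totals, DESeq2 (1.42.0) size factors and test, other filters, a gene length offset, a replicate block, only the libraries compared, and each library left out.

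Members and lists were chosen with earlier results of these data known. All members are named, and per list and comparison the 3 largest called changes in each direction among genes at 1 CPM or more in either group. Ikbkb, Chuk, Traf2, Birc2, Map3k14 after 8 Gy, Ikbkg and Bcl3 in KPC, Icam1, Cxcl2, Ier3 and Rn18s-rs5 were named besides, after their values were seen.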

Additional observations from a re-analysis of the deposited data

Results flagged for a closer look

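These genes were singled out because their changes after 8 Gy differed between the lines, by the test of the difference itself (KPC minus MB49, log2 scale, edgeR with Benjamini-Hochberg adjustment). Among the members these were Tnfaip3 (2.37), Rela (1.32), Nfkb1 (1.07), Nfkbie (0.89), Rel (0.81) and Nfkbiz (0.71). Only for Tnfaip3 were the changes in the lines both called and opposite. Upstream of the members, the difference was positive for Cd40 (4.51, resting on 1 count in the KPC controls, so its size is no bound), Birc3 (2.36) and Ripk1 (2.19). It was negative for Traf3 (-2.47, resting on 28 and 37 counts in the MB49 groups), Map3k14 (-1.43) and Tnfrsf1b (-1.22). Among other regulators it was positive for Bcl3 (1.96), Optn (1.63) and Nkrf (1.49) and negative for Commd1 (-1.04) and Nkiras2 (-0.99). Among targets it was positive for Cfb (7.42), Nos2 (6.45) and Csf2 (5.88, with 4 counts in the KPC controls) and negative for Traf1 (-3.54), Ccl5 (-3.23) and Plau (-2.71). The list genes are the largest differences in each direction, chosen by size.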

How the results depend on the processing

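Over all alternatives the members called were 6 to 8 lower and 2 higher in MB49, 4 to 6 lower and 3 higher in KPC, 5 to 7 higher and 0 lower for the difference, 9 to 10 lower in KPC controls and 4 to 7 lower in irradiated KPC cells. In the last comparison 1 member was higher with the gene length offset, alone or with the replicate block (Nfkbib, 0.30 in both). Nfkbib was then also lower in KPC controls (-0.30). Without a filter Nfkb2 (-0.43) and Nfkbib (-0.42) were called in MB49, and Nfkbie and Nfkbiz lost their calls between the irradiated lines (adjusted p = 0.0767 and 0.0894). With only the MB49 libraries Nfkb2 (-0.39) and Nfkbib (-0.38) were called. The causes were not tested.

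The 22 log2 changes that changed sign were all of genes not called. For Nfkb2 in KPC these were 0.00958 with DESeq2 size factors, 0.00955 with DESeq2's test and 0.000237 with the length offset, and it lay between -0.114 and 0.0417 with 1 library left out (positive without KPC 8 Gy replicate 2). Rel in KPC was -0.235 with library totals. Nfkbib in KPC was 0.00426 with the length offset and 0.000145 with that and the replicate block, and lay between -0.139 and 0.0254 (positive without KPC control replicate 1). The Nfkbia difference was 0.0210 with DESeq2 size factors, 0.0209 with its test, 0.0875 with no filter and 0.144 with the length offset, with or without the block, and lay between -0.199 and 0.0621 (positive without MB49 or KPC control replicates 1 or 2). Nfkbib between controls lay between -0.155 and 0.103 (positive without replicate 3 of either line). Rel between irradiated lines was 0.0244 with the length offset, 0.0215 with that and the block, and lay between -0.215 and 0.0784 (positive without MB49 8 Gy replicate 3).

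Leaving out each library in turn, the MB49 change of Nfkbie lay between -3.08 and -2.91 and its KPC change between -2.18 and -1.99. That of Tnfaip3 lay between -1.36 and -1.23 in MB49 and between 0.98 and 1.21 in KPC. Same-numbered libraries did not deviate together (r from -0.237 to 0.171, over 0.1 in 2 of 18 pairs). With 3 libraries per group this cannot settle whether the numbers pair them, and the labels do not say. With the replicate block 2 members rose and 6 fell in MB49, 3 rose and 4 fell in KPC, and 6 differed in response. Over all genes 4998 were higher and 4530 lower in MB49, and 4481 and 4548 in KPC. Counts limit the precision for Rel (420 to 926 per group) and for Traf3 and Cd40. Other named genes also had few counts in a group, among them Nfkbid (13 in irradiated KPC cells) and Nkrf (61 in irradiated MB49 cells). Cfb had 34 and Birc3 57 in KPC controls, and Cxcl5 had 35 in irradiated MB49 cells. In scalings chosen after seeing the data, the IkB sum per kilobase after 8 Gy minus control was 57.5 in MB49 and 28.8 in KPC, but -2.71 and -13 CPM per kb with library totals and 56.6 and 35.4 with DESeq2 size factors. The subunit sum stayed negative, at -344 in MB49 and -67.1 in KPC, -492 and -143 with library totals and -341 and -56.2 with DESeq2 size factors.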
